A study of Mus musculus with 12 samples.

Results

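The mesothelial genes described here are 8 of the 52550 genes in a table of raw RNA-seq counts from mouse intestinal muscle: Msln, Upk3b, Upk1b, Wt1, Lrrn4, Gpm6a, Muc16 and Bnc1. They were chosen by symbol, and each matched 1 Ensembl gene. RNA was sequenced from 12 libraries in 4 groups of 3 biologically independent replicates. In 3 groups, primary cells from intestinal muscle layers of wild-type mice were cultured for 28 days. P plate cells were kept on a well plate in P medium (proliferation medium), which is DMEM with 10% FBS and ABAM, an antibiotic and antimycotic mix. M plate cells were kept on a well plate in M medium (differentiation medium), which is Advanced DMEM/Ham's F-12 with Y27632 at 10 µM, Noggin at 100 ng/ml and R-spondin1 at 1 µg/ml, and with B27 without vitamin A, N2, HEPES, GlutaMAX, N-acetylcysteine and ABAM. M scaffold cells were on a scaffold of electrospun gelatin in this M medium, and strips are intestinal muscle strips of native tissue, the positive control. The cultures are mixed primary cells with no sort or passage given in the labels, and which layers stayed on the muscle of the strips is not stated there.

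Mesothelium is the sheet of flat cells that covers the outside of the gut as the serosa and lines the body cavity. It has features of an epithelium, such as keratins and junctions, but derives from mesoderm, and in the embryo it gives rise to vascular smooth muscle cells and fibroblasts of the gut. In injury or culture, mesothelial cells can lose epithelial features and take on mesenchymal ones. Msln encodes mesothelin, a surface protein anchored by a lipid, and Muc16 encodes the membrane mucin (CA125) to which mesothelin binds. Upk3b and Upk1b encode uroplakins, membrane proteins best known from the urothelium of the bladder. Wt1 and Bnc1 encode zinc finger transcription factors. Lrrn4 encodes a membrane protein with leucine-rich repeats, and Gpm6a encodes a proteolipid membrane glycoprotein that is also abundant in neurons.

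All 8 are protein-coding genes, at these positions in GRCm38 with the GENCODE M21 annotation. Msln lies at chr17:25748613-25754378 and Muc16 at chr9:18495455-18674530, both on the minus strand. Upk3b lies at chr5:136038496-136046487 on the plus strand and Upk1b at chr16:38773184-38800328 on the minus strand. Wt1 lies at chr2:105126529-105173616 on the plus strand and Bnc1 at chr7:81966672-81992292 on the minus strand. Lrrn4 lies at chr2:132868305-132880891 on the minus strand and Gpm6a at chr8:54954843-55060871 on the plus strand. Muc16 has 26350 exonic bases in 86 blocks, against 2089 to 6195 exonic bases in the other members, so levels are compared between genes only per kilobase. Of the 8, Bnc1 alone shared exonic bases with another gene, 98 with the pseudogene 4833418N17Rik on the opposite strand, which held 2 to 45 counts in any library. Whether the counting used strand is not known here.

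Promoter sequence was at hand for 5 of the 8 members, from RefSeq on GRCm38.p6, as 300 bases that run from 250 before to 50 after a transcription start. Msln, Upk1b and Wt1 had no entry. The first 3 sequences are shown because they hold the motif GGAATG, which TEAD factors bind, on either strand. The motif stands in capitals, as CATTCC where it lies on the other strand. The Gpm6a entry lies upstream of the start of the M21 gene model.
Lrrn4, chr2:132880813-132881112, minus strand: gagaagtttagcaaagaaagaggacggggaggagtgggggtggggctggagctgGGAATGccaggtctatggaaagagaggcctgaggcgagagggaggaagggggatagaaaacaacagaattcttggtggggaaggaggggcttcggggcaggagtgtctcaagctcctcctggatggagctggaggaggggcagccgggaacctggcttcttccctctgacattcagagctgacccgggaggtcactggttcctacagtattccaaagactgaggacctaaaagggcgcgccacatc
Upk3b, chr5:136038246-136038545, plus strand: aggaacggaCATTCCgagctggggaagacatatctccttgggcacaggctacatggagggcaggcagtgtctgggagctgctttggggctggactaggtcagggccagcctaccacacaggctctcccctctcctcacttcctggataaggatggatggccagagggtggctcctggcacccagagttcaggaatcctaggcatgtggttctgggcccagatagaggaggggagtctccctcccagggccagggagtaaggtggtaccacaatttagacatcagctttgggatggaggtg
Gpm6a, chr8:54779184-54779483, plus strand: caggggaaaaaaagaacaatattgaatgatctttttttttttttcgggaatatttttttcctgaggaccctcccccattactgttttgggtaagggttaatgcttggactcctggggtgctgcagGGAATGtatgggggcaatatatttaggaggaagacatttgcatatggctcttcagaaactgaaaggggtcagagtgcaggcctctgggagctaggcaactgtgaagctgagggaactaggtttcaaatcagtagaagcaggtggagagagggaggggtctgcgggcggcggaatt
The next pair is shown because Bnc1 and Muc16 lay on opposite sides of the strips in M plate, and it holds no GGAATG.
Bnc1, chr7:81992250-81992549, minus strand: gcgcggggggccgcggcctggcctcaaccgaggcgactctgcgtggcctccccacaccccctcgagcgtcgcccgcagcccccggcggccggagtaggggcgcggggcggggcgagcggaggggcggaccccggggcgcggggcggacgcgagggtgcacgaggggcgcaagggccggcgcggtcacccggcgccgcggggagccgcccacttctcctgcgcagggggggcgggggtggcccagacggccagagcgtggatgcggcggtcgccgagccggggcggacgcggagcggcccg
Muc16, chr9:18674554-18674853, minus strand: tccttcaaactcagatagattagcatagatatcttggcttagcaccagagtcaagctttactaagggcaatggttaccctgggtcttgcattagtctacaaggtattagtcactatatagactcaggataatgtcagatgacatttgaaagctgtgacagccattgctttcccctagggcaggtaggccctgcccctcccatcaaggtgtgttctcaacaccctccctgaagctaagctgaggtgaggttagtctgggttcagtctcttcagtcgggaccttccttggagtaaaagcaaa

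GGAATG was found in 3 of the 6 member promoters, which include a second entry for Gpm6a, and in 14.66% of the 32851 promoters in the RefSeq table. Counted from the transcription start, its first base was at -196 in Lrrn4, -241 in Upk3b and -125 in Gpm6a. The motif GCGGGGGCG, of the kind that Wt1 binds, was in 0 of the 6 and in 2.907% of all promoters. Its shorter form GGGGGC, which the longer motif contains, was in 2 of the 6 (Bnc1 and the Gpm6a entry above) and in 28.1% of all. The E-box CANNTG, in which N is any base, was in 4 of the 6 and in 72.31% of all. All motifs were searched on both strands. The Bnc1 promoter had 83.3% G and C and the Muc16 promoter 46.7%. These matches describe the letters in the windows only.

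Gene counts per library ranged from 21396485 to 116643512, and the lowest count of any member in any library was 233, so each member passed the low-count filter in every group. Levels are given as CPM, which are counts divided by the library size, after scaling with the trimmed mean of M values (TMM). The 8 smooth muscle markers, checked against the label of the strips, summed to 33840 to 35280 CPM there, against 2866 to 10800 CPM in the cultures. Of 18 additional mesothelial genes, 18 had over 3 counts in every library of M plate, M scaffold and strips, and 17 in P plate. All 10 macrophage and all 8 smooth muscle markers also passed this bar in every group, so it does not test the label mesothelial. In these bulk samples, fewer mesothelial cells and less RNA of a gene per cell cannot be told apart.

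P plate replicate 1 stood apart from all other libraries in the mesothelial genes. It was the lowest of the 12 libraries for 8 of 8 members, whereas 21.4% of the 17700 genes tested were lowest there. Against the mean of P plate replicates 2 and 3, it was 26.9 times lower in Lrrn4, 22.1 times lower in Msln and 20.4 times lower in Gpm6a. The corresponding values were 7.76 for Bnc1, 7.50 for Muc16, 7.29 for Upk3b, 7.2 for Upk1b and 3.36 for Wt1. A level at least 5 times below that mean was found in 5.63% of all genes tested. The 8 members summed to 437 CPM in that library and to 4443 and 3403 CPM in the others of its group. Their sum was 2526 to 3212 CPM in the M plate libraries, 1256 to 2051 in those of M scaffold and 2840 to 3351 in the strips.

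In the same library, 10 of 10 macrophage markers were the highest of all 12 libraries, beside 16.0% of all genes tested, and none of them was at 0 in any group. They summed to 21680 CPM there and to 4131 and 2380 CPM in the rest of P plate. The sums were 4078 to 4833 CPM over the M plate libraries, 1943 to 4206 over M scaffold and 161 to 226 over the strips. Of the 18 additional mesothelial genes, 17 were below both other P plate libraries, as were 40.9% of all genes tested, and 13 were the lowest of all 12, beside the 21.4% given above. The exception was Tbx18, a transcription factor of the embryonic mesothelium, at 11.7 CPM against 0.0922 and 0.351. Against the mean of P plate replicates 2 and 3, the gap in the 17 was uneven. It ran from 1.05 times in Cdh1, 1.09 in Slpi and 1.27 in Pdpn to 28.65 times in Cldn15. The part of the macrophage signal in the low mesothelial values was not tested. Since all 12 libraries share an estimate of the spread, this library also widens the standard errors of comparisons without P plate, and each comparison of the 8 members is therefore given with and without it.

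**Figure D1:**
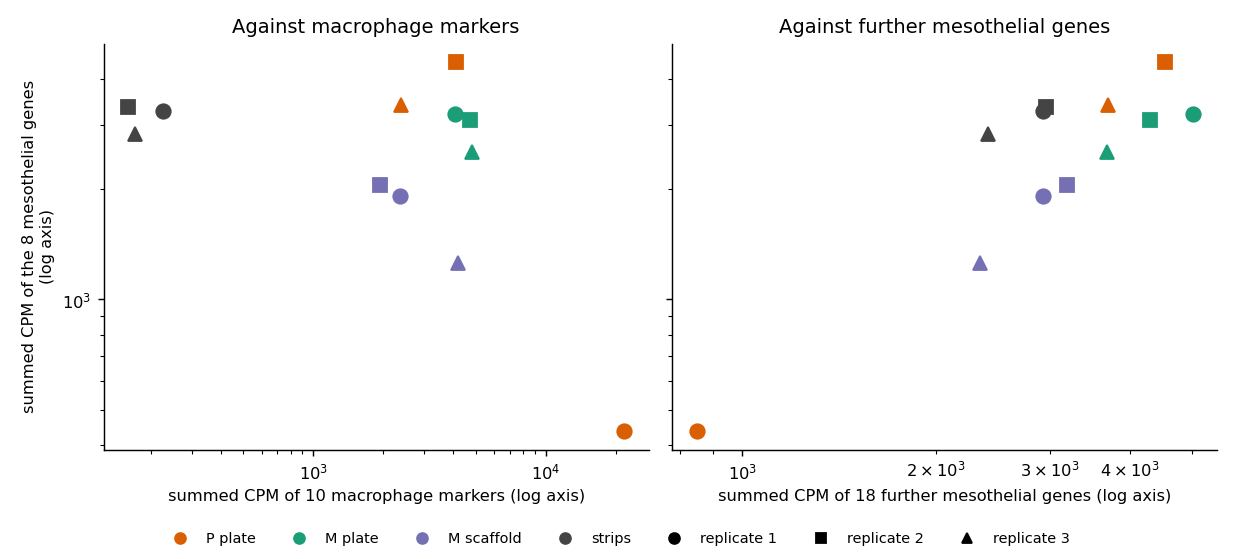
Summed CPM of the 8 mesothelial genes (vertical, log axis) against the summed CPM of 10 macrophage markers (left) and of 18 further mesothelial genes (right, both log axes), with 1 point per library. P plate replicate 1 lies alone, with 437 CPM of mesothelial and 21680 CPM of macrophage signal, while the strips have 161 to 226 CPM of macrophage signal.

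Mesothelin and its mucin partner were the members with the highest levels in strips relative to culture. Msln was at 24.3, 524 and 551 CPM in P plate replicates 1, 2 and 3, at 345, 271 and 244.5 CPM in M plate, at 149, 180 and 160 CPM in M scaffold, and at 1025, 1212 and 866 CPM in strips. Every strip library was above every culture, and the M scaffold libraries were below those of M plate. The means were 1034 ± 173 CPM in strips, 367 ± 297 in P plate, 287 ± 52.1 in M plate and 163 ± 15.5 in M scaffold (SD, n = 3). In this order no pair of neighbours was called with all 12 libraries.

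Muc16 was at 6.38, 54.4 and 41.2 CPM in P plate, 53.3, 52.5 and 37.0 in M plate, 28.1, 58.5 and 40.6 in M scaffold, and 191, 168 and 160 in strips. The strips lay above all cultures, and the 3 culture groups overlapped. Its mean was 173 ± 16.4 CPM in strips, 47.6 ± 9.18 in M plate, 42.4 ± 15.3 in M scaffold and 34.0 ± 24.8 in P plate. Per kilobase of exon it was the lowest member, at 6.57 CPM per kb in strips and 1.29 to 1.81 in the cultures. At that scale Msln averaged 338 CPM per kb in strips, where its median rank was 56 of 17676 genes.

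The uroplakin Upk3b had the highest mean of the members in each culture group per kilobase, although Upk1b was above it in P plate replicate 3 (320.5 against 287 CPM per kb). Its levels were 166, 1399 and 1013 CPM in P plate, 1045, 952 and 807 in M plate, 546, 695 and 381 in M scaffold, and 970, 927 and 874 in strips. Strips and M plate overlapped, M scaffold lay below both, and P plate held both the lowest and the highest library. It averaged 265 ± 34.1 CPM per kb in M plate (median rank 92 of 17676 genes), 262 ± 13.6 in strips, 243 ± 179 in P plate and 153 ± 44.5 in M scaffold.

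Upk1b, a uroplakin of the tetraspanin family, had the opposite order to Msln between culture and tissue. It was at 94.6, 692 and 669.5 CPM in P plate, 303, 387 and 319 in M plate, 197, 267 and 169 in M scaffold, and 192, 175 and 140 in strips. The M plate libraries were above all strips and all M scaffold libraries, while M scaffold and strips overlapped. The group means fell in the order 485 ± 339, 336 ± 44.4, 211 ± 50.4 and 169 ± 26.6 CPM (P plate, M plate, M scaffold, strips), and no neighbours were called with all 12 libraries.

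The transcription factor gene Wt1 had the smallest gap between P plate replicate 1 and the other P plate libraries. It was at 69.6, 250 and 217 CPM in P plate, 180, 168 and 149 in M plate, 158, 152 and 128 in M scaffold, and 105, 89.9 and 90.6 in strips. All M plate and M scaffold libraries were above all strips, and the 2 groups in M medium overlapped. Their means were 166 ± 15.5 and 146 ± 15.9 CPM, against 179 ± 96.1 in P plate and 95.2 ± 8.53 in strips.

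Bnc1 was at 38.3, 351 and 243 CPM in P plate, 246, 331 and 237 in M plate, 214, 144 and 105 in M scaffold, and 81.7, 85.02 and 76.8 in strips. The 3 strip libraries lay within a narrow range below every M plate and M scaffold library. Its means were 271 ± 51.8 CPM in M plate, 211 ± 159 in P plate, 155 ± 55.0 in M scaffold and 81.2 ± 4.14 in strips. Bnc2, the close relative of Bnc1, had 14.8 to 41.2 CPM over all libraries.

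Lrrn4 was at 22.2, 752 and 445 CPM in P plate, 463, 492 and 412 in M plate, 353.5, 290 and 149 in M scaffold, and 440, 395 and 408 in strips. M plate and strips overlapped, and all M scaffold libraries were lower than both. Its means were 456 ± 40.5 CPM in M plate, 414 ± 22.8 in strips, 406 ± 366 in P plate and 264 ± 105 in M scaffold.

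Gpm6a was at 15.8, 421 and 223 CPM in P plate, 576, 438 and 321 in M plate, 266.5, 264 and 124 in M scaffold, and 259, 299 and 226 in strips. The M plate libraries were above those of M scaffold and strips. Its means were 445 ± 128 CPM in M plate, 261 ± 36.5 in strips, 220.1 ± 203 in P plate and 218 ± 81.9 in M scaffold. Because neurons also express this gene, the 12 neuronal markers were summed beside it: P plate had 42.1 to 83.2 CPM of them (Chat at 0), M plate 189 to 331, M scaffold 489 to 706 and the strips 1839 to 2498. That order differs from the order of Gpm6a, which was highest in M plate. The part of neurons in the Gpm6a level was not tested.

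**Figure D2:**
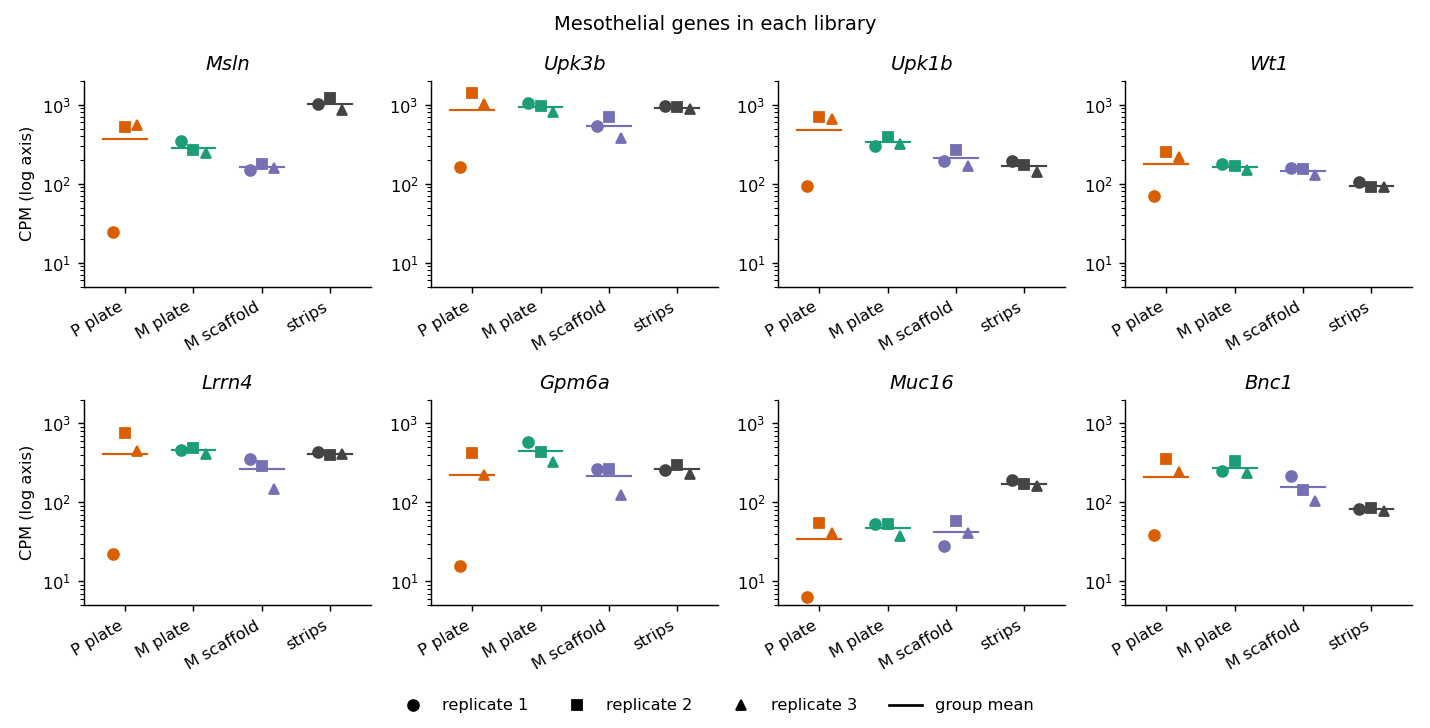
CPM (log axis) of each of the 8 genes in the 12 libraries, with 1 symbol per replicate and a line at the mean of each group. P plate replicate 1 is the lowest point in all 8 panels, Msln and Muc16 are highest in the 3 strip libraries, and Bnc1 lies at 76.8 to 85.02 CPM in strips.

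The first comparison, M plate against P plate, concerns the medium on well plates. In the edgeR quasi-likelihood fit of all 12 libraries, 0 of the 8 members were called higher and 0 lower, where 14.3% of all genes were called higher and 10.6% lower (Benjamini-Hochberg adjusted p under 0.05). None of the 8 had an unadjusted p under 0.05, and DESeq2 and limma-voom also called 0. The log2 fold changes ran from -0.53 ± 0.54 (SE) for Upk1b to 1.02 ± 0.78 for Gpm6a, with a median of 0.14 against -0.0044 over all genes.

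Without P plate replicate 1, 3 members were called lower in M plate and 0 higher, beside 12.2% and 16.4% of all genes. These were Upk1b (log2 fold change -1.02 ± 0.20, edgeR adjusted p = 0.00476), Msln (-0.90 ± 0.18, adjusted p = 0.00504) and Wt1 (-0.49 ± 0.13, adjusted p = 0.0202). The other 5 ran from -0.39 ± 0.32 for Lrrn4 to 0.47 ± 0.38 for Gpm6a, and the median of the 8 moved from 0.14 to -0.38. The count therefore rests on whether that library is in the fit, and with it absent P plate has 2 libraries.

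M scaffold against M plate concerns the scaffold in the same medium. All 8 members had a negative log2 fold change, with a median of -0.79 against 0.0098 over all genes. In 6 of the 8 the M scaffold libraries were all lower than the M plate libraries, as in 17.4% of all genes, while Wt1 and Muc16 overlapped. Without M scaffold replicate 1 the value for Muc16 was 0.07, so its sign depends on that library.

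In the fit of all 12 libraries, edgeR called 0 members higher and 0 lower, beside 1.53% and 1.64% of all genes. None had an unadjusted p under 0.05, and DESeq2 and limma-voom called 0. The values were -1.03 ± 0.78 for Gpm6a, -0.82 ± 0.74 for Msln, -0.81 ± 0.58 for Bnc1, -0.79 ± 0.55 for Upk3b, -0.79 ± 0.81 for Lrrn4 and -0.67 ± 0.54 for Upk1b. They were nearer 0 in Wt1 (-0.18 ± 0.35) and Muc16 (-0.17 ± 0.56).

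Libraries of these groups with the same replicate number deviated together in these same counts. A fit with the replicate number as a block was therefore made in the 6 libraries. With this block 4 members were called lower and 0 higher, beside 5.69% and 4.81% of all genes. They were Gpm6a (-1.06 ± 0.15, edgeR adjusted p = 0.0262), Upk1b (-0.68 ± 0.11, adjusted p = 0.0338), Msln (-0.79 ± 0.16, adjusted p = 0.0441) and Upk3b (-0.81 ± 0.16, adjusted p = 0.0442). Lrrn4 (-0.86 ± 0.22, adjusted p = 0.074) and Bnc1 (-0.85 ± 0.23, adjusted p = 0.0786) missed the threshold. The block in all 12 libraries, where the numbers do not pair the other groups, called 0 members. It called 1.25% of all genes higher and 0.955% lower. With all groups in the fit but without P plate replicate 1, Msln alone was called lower (-0.79 ± 0.17, adjusted p = 0.0204), beside 4.94% of genes lower and 5.51% higher.

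M scaffold against P plate changes medium and scaffold together. With all 12 libraries edgeR called 0 members in either direction, beside 15.1% of genes higher and 9.61% lower. Of the 8, 1 had an unadjusted p under 0.05 (Upk1b, -1.20 ± 0.54), and DESeq2 and limma-voom called 0. The median was -0.53 against -0.032 over all genes. For the members it was -1.02 without P plate replicate 1, 0.082 without P plate replicate 2 and -0.032 with limma-voom. Without P plate replicate 1, 6 members were called lower and 0 higher, beside 9.91% and 16.6% of all genes. The 6 were Msln (-1.70 ± 0.18), Upk1b (-1.66 ± 0.20), Lrrn4 (-1.15 ± 0.32), Upk3b (-1.13 ± 0.24), Bnc1 (-0.92 ± 0.27) and Wt1 (-0.65 ± 0.13), with edgeR adjusted p values from 0.000126 to 0.0305. Gpm6a (-0.54 ± 0.37) and Muc16 (-0.15 ± 0.28) were not called.

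The last 3 comparisons set each culture against the native strips, and they share the strip libraries. In P plate against strips, 2 members were called higher and 1 lower, beside 30.5% and 32.7% of all genes. Upk1b was higher (1.52 ± 0.55, edgeR adjusted p = 0.0316), as was Wt1 (0.91 ± 0.35, adjusted p = 0.0431), and Muc16 was lower (-2.35 ± 0.59, adjusted p = 0.00537). P plate and strips did not overlap in 2 members, Msln and Muc16, both lower, as in 36.1% of all genes. The median of the 8 was -0.067 against -0.0285 over all genes. It was 0.42 without P plate replicate 1, -0.74 without P plate replicate 2 and -0.81 with limma-voom. The calls of Upk1b and Wt1 were lost without any of P plate replicates 2 and 3 and strips replicates 1, 2 and 3 (adjusted p from 0.0655 to 0.175), while Muc16 was called throughout. With P plate replicate 1 left out, 3 were higher (Upk1b 1.97, Bnc1 1.84, Wt1 1.26) and 2 lower (Muc16 -1.89, Msln -0.98), beside 28.3% and 34.1% of genes.

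In M plate against strips, Bnc1 was higher (1.74 ± 0.59, edgeR adjusted p = 0.0278) and Muc16 lower (-1.86 ± 0.58, adjusted p = 0.019), which is 1 member in each direction beside 26.5% and 28.4% of all genes. The groups did not overlap in 4 members that were higher in M plate (Upk1b, Wt1, Gpm6a and Bnc1), as in 36.2% of all genes, and in 2 that were lower (Msln and Muc16), as in 37% of all genes. Upk3b and Lrrn4 had values near 0 (0.02 ± 0.55 and 0.14 ± 0.80), whose sign changed with upper quartile scaling. The median of the 8 was 0.45 against -0.0072 over all genes, and with upper quartile scaling 20.9% of genes were called higher and 34.3% lower. The Bnc1 call was lost without M plate replicate 2 or strips replicate 1, 2 or 3 (adjusted p from 0.0692 to 0.0815), and the Muc16 call without M plate replicate 3 (0.068). Without P plate replicate 1, Msln was called lower (-1.89 ± 0.17, adjusted p = 1.2e-05) with Muc16 (-1.90), and Upk1b (0.96 ± 0.18, adjusted p = 0.00131), Wt1 (0.76 ± 0.12, adjusted p = 0.000371) and Bnc1 (1.70) were higher. That is 3 higher and 2 lower, beside 28% and 32.7% of genes.

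In M scaffold against strips, edgeR called 2 members lower, Msln (-2.67 ± 0.78, adjusted p = 0.0156) and Muc16 (-2.03 ± 0.58, adjusted p = 0.014), beside 27.6% of all genes. It called 0 higher, beside 24.5% of genes, as did DESeq2 and limma-voom, and 0 of the higher members had an unadjusted p under 0.05. The groups did not overlap in 2 members higher in M scaffold (Wt1 and Bnc1), as in 30.3% of genes, and in 4 lower (Msln, Upk3b, Lrrn4 and Muc16), as in 34.9%. The median of the 8 was -0.46 against -0.023 over all genes. The Muc16 call was lost without M scaffold replicate 1 (adjusted p = 0.0515), and the Msln call with limma-voom (adjusted p = 0.0531). With P plate replicate 1 left out, Wt1 (0.61) and Bnc1 (0.92) were called higher and Msln (-2.68), Upk3b (-0.78) and Muc16 (-2.04) lower, beside 27.2% and 31.6% of genes.

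**Figure D3:**
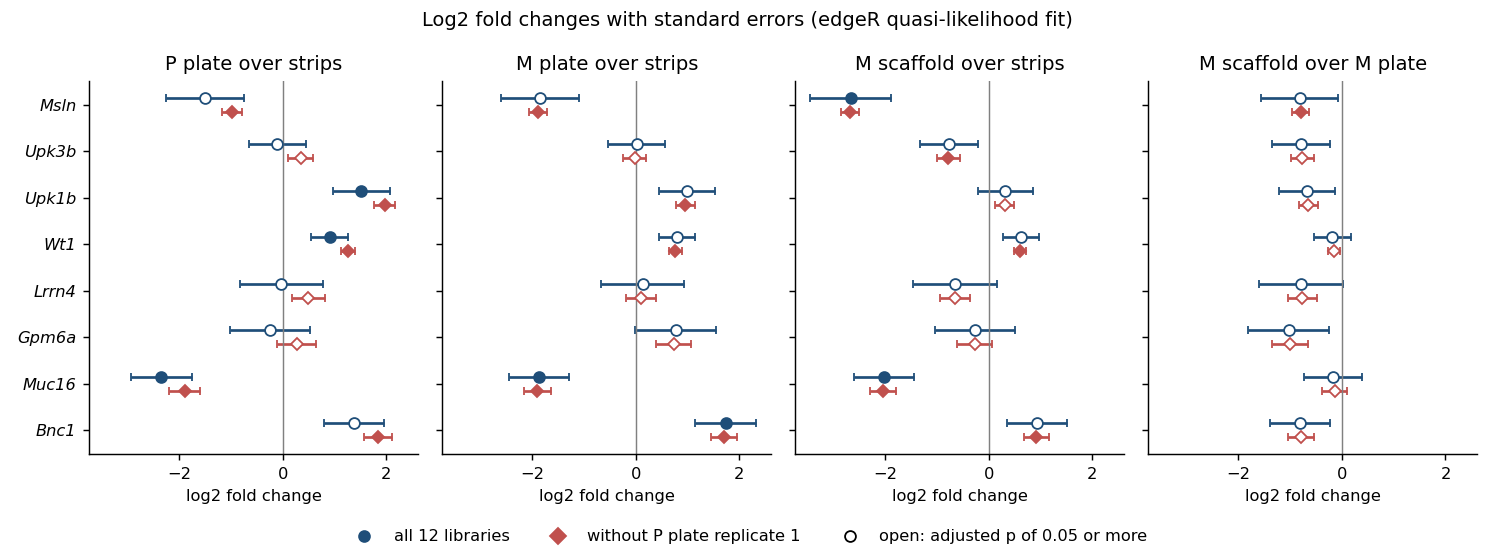
Log2 fold changes (horizontal) of the 8 genes in 4 comparisons, with standard errors as bars, in the fit of all 12 libraries (blue circles) and without P plate replicate 1 (red diamonds). Filled symbols passed an adjusted p under 0.05. The error of Msln in M plate over strips was 0.76 with all libraries and 0.17 without that library.

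The make-up of the mesothelial signal differed between tissue and culture. Each gene was expressed as a share of the summed CPM per kilobase of the 8 genes within a library. Msln made up 35.5%, 40.3% and 34.7% of the sum in strips, and 6.08% to 16.9% in the 9 cultures. Muc16 made up 0.651% to 0.771% in strips and 0.147% to 0.423% in the cultures. In the other direction, Upk1b made up 8.22% to 9.75% in strips against 15.4% to 34.6% in the cultures, Wt1 1.48% to 1.80% against 2.97% to 8.59%, and Bnc1 1.87% to 2.03% against 4.92% to 8.40%. For these 5 genes no culture overlapped the strips, P plate replicate 1 included. Such shares exist for the 8 members only. In CPM, 36.2% of all genes were higher and 37% lower in all M plate libraries than in all strips. Upk3b kept a similar share everywhere, 26.8% to 30.4% in strips and 26.9% to 35.9% in the cultures. Lrrn4 (10.9% to 13.5% in strips) and Gpm6a (8.56% to 9.47% in strips) lay within the range of the cultures. Shares within a library sum to a whole, so they are not independent of each other, and they are given without a test.

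**Figure D4:**
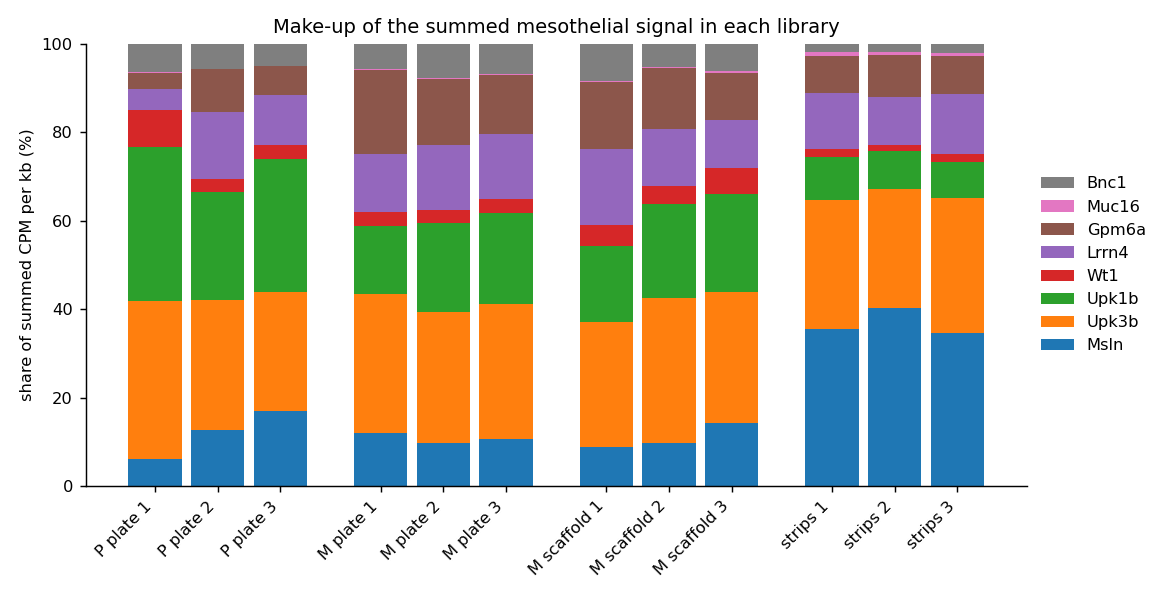
Share of each of the 8 genes in their summed CPM per kb, as 1 stacked bar per library that reaches 100%. Msln takes 34.7% to 40.3% in the 3 strip libraries and at most 16.9% in any culture, while Upk3b takes 26.8% to 35.9% in all 12.

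Ratios of 2 members within a library do not depend on the scaling between libraries. They are not corrected for gene length here, so they are compared between groups and do not show which of the 2 genes is higher. The ratio of Msln to Upk1b in CPM was 5.34, 6.91 and 6.19 in strips and 0.257 to 1.14 in the 9 cultures. Muc16 over Bnc1 was 2.34, 1.98 and 2.08 in strips and 0.131 to 0.406 in the cultures. Per kilobase Muc16 was below Bnc1 in strips too, with means of 6.57 and 17.5 CPM per kb. The uroplakin ratio, Upk3b over Upk1b, was 5.05 to 6.25 in strips and 1.51 to 3.45 in the cultures. Msln over Muc16, the pair of binding partners, was 5.36 to 7.21 in strips and overlapped the cultures, at 3.07 to 13.4.

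The strips also held markers of intestinal epithelium. The 13 markers of intestinal epithelium and urothelium summed to 185 to 464 CPM in strips, whereas P plate had 5.45 to 43.8 CPM, M plate 44.5 to 52.5 and M scaffold 32.6 to 43.1. The keratin gene Krt14 alone was at 72.4 to 89.8 CPM in strips. In the cultures it had 1.10, 38.8 and 29.3 CPM (P plate), 38.8 to 45.9 (M plate) and 23.0 to 35.0 (M scaffold). It thus made up most of the culture sums except in P plate replicate 1. In that library, which was low for the mesothelial members too, Krt14 was 31.1 times below the mean of P plate replicates 2 and 3. Fabp2 was at 18.3, 151 and 11.9 CPM in strips. Without these 2 genes the other 11 summed to 102, 223 and 101 CPM in strips and to 3.48 to 12.8 CPM in the cultures. Of the 11, Chga alone was at 42.4, 38.0 and 54.6 CPM in strips and at 5.13 to 6.72 CPM in M scaffold. Unlike Fabp2 it was lowest in strips replicate 2, as was the sum of the 12 neuronal markers (1930, 1839 and 2498 CPM). The part of neurons in the Chga level was not tested. Cdx2 was at 0 in every culture, Cdh16 in P plate and M plate, and Fabp2 in M plate, while no marker was at 0 in all 3 strips. In strips Krt5, Trp63 and Cdh16 reached at most 0.997, 0.667 and 0.0696 CPM, so they added little to the sum. Of the 13, 12 were tested, and 9, 11 and 8 of them were lower in P plate, M plate and M scaffold than in strips by edgeR, beside 32.7%, 28.4% and 27.6% of all genes. The counts were 10, 12 and 9 without P plate replicate 1, beside 34.1%, 32.7% and 31.6%. None was higher in any of the 3 with all libraries, also 0 at an unadjusted p under 0.05, with DESeq2 and with limma-voom. The epithelial sum was highest in strips replicate 2, as was Msln (1212 CPM), while Muc16 was highest in strips replicate 1. The part of epithelial cells in the Msln and Muc16 levels of the strips was not tested.

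Of the 18 additional mesothelial genes, all tested, 5 were called higher and 1 lower in M plate than in P plate, beside 14.3% and 10.6% of all genes, with a median of 0.53. The 5 were Efemp1, a matrix glycoprotein (3.17 ± 0.47, adjusted p = 0.000908), Cdh1 (E-cadherin, 2.23 ± 0.58), Slpi, a secreted protease inhibitor (1.67 ± 0.21), Rspo1, an agonist of Wnt signalling (1.66 ± 0.55), and the retinoic acid synthase gene Aldh1a2 (0.91 ± 0.27). Efemp1 was at 37.9, 141 and 64.4 CPM in P plate and at 1000, 693 and 495 CPM in M plate. The keratin gene Krt18 was lower (-1.87 ± 0.58, edgeR adjusted p = 0.0402). Without P plate replicate 1, 5 were higher and 4 lower, beside 16.4% and 12.2% of all genes, and the lower ones were Krt7, Krt8, Krt18 and Ezr.

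In M scaffold against M plate, edgeR called 0 of the 18 with all libraries, and their median was -0.57. At an unadjusted p under 0.05 1 of the 18 was lower. DESeq2 called 1 lower, beside 4.93% of all genes, and limma-voom called 0. With P plate replicate 1 left out, 2 were called lower, Rspo1 (-1.10 ± 0.20, edgeR adjusted p = 0.0132) and Slpi (-0.80 ± 0.21, adjusted p = 0.0412), and 0 higher, beside 4.94% and 5.51% of all genes. With the replicate block in 6 libraries, 7 of the 18 were called lower and 0 higher, beside 5.69% and 4.81% of all genes: Rspo1 (-1.13 ± 0.09), Slpi (-0.79 ± 0.12), Aldh1a1, Nkain4, Cldn15, Krt7 and Pkhd1l1. In 9 of the 18 all M scaffold libraries were lower than all M plate libraries, beside 17.4% of all genes.

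Against strips, 3 of the 18 were higher and 5 lower in P plate, 4 and 3 in M plate, and 3 and 3 in M scaffold, in comparisons that share the strips. The shares of all genes were 30.5% and 32.7%, 26.5% and 28.4%, and 24.5% and 27.6% in the same order. Krt19, a keratin of simple epithelia, was at 229 to 328 CPM in strips and at 14.7 to 55.0 CPM in the cultures, with log2 fold changes of -3.43 ± 0.30, -2.80 ± 0.29 and -2.46 ± 0.28 in P plate, M plate and M scaffold. Aldh1a2 was lower in all 3 (-2.64 ± 0.28, -1.73 ± 0.27 and -1.96 ± 0.27), as was Cdh1 (-4.47, -2.25 and -2.85). Cdh1 was at 32.2 CPM in strips replicate 2, where the epithelial sum was highest, and at 7.31 and 8.06 in the others. Gata6, a transcription factor, was higher in all 3 (2.09 ± 0.50, 2.33 ± 0.50 and 2.07 ± 0.50), as was Pdpn, which encodes podoplanin (2.35 ± 0.20, 2.18 ± 0.19 and 1.77 ± 0.19). The P plate call of Tbx18 (3.62 ± 1.40, edgeR adjusted p = 0.0423) rested on replicate 1, and the value was -0.61 without it. Leaving that library out gave 7 higher and 6 lower in P plate, 8 and 5 in M plate, and 7 and 8 in M scaffold, beside 28.3% and 34.1%, 28% and 32.7%, and 27.2% and 31.6% of all genes.

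**Figure D5:**
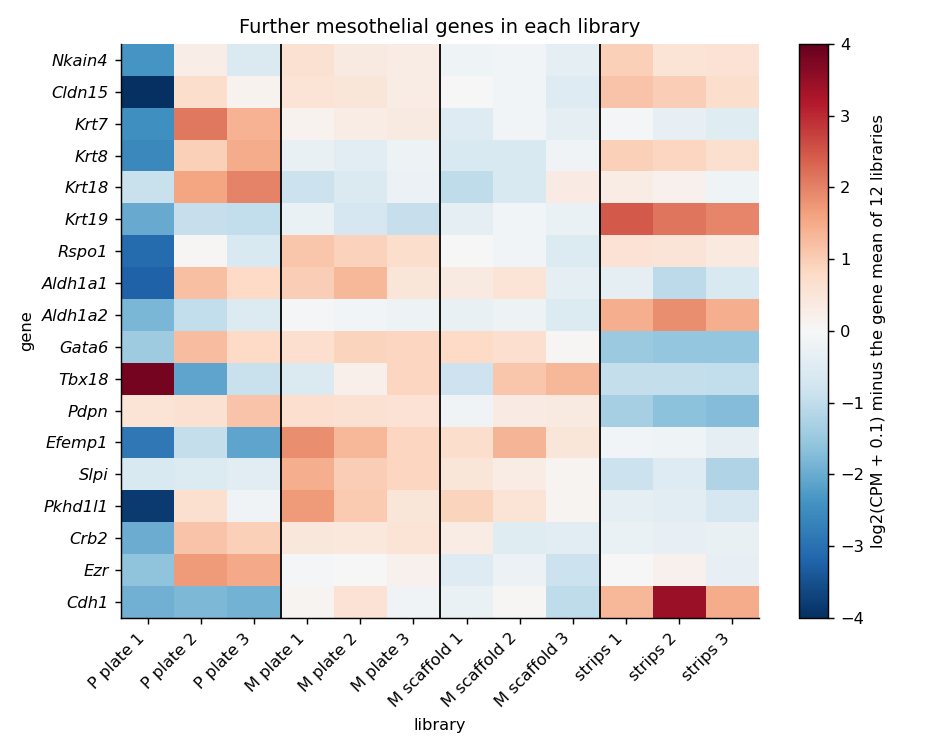
Log2(CPM + 0.1) of 18 further mesothelial genes in each library, relative to the mean of the gene over 12 libraries (colour scale). P plate replicate 1 is below both other P plate libraries in 17 of the 18, though only slightly in Cdh1, Slpi and Pdpn. It is high in Tbx18, and Krt19 and Aldh1a2 are highest in the strips.

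The closest relatives of the members were mostly low or followed other patterns. The bladder uroplakins were at or near 0: Upk1a at 0.0932 to 0.351 CPM, Upk2 at 0 in P plate and strips and at most 0.522 CPM elsewhere, and Upk3a at 0 in M plate and M scaffold and at most 0.411 CPM elsewhere. The membrane mucin genes Muc4 (at most 0.125 CPM) and Muc1 (1.00 to 3.38 CPM) were low in all libraries. Where no read was counted, a level of up to 0.0271 to 0.125 CPM (3 counts, depending on the library) is still possible from counting error alone. Gpm6b, the relative of Gpm6a, was at 16.9, 3.996 and 7.59 CPM in P plate, 23.5, 18.7 and 36.4 in M plate, 46.8, 89.5 and 116 in M scaffold and 39.7, 51.3 and 48.7 in strips, so its mean was highest in M scaffold, where Gpm6a was below its M plate level, although M scaffold was not called against strips (0.86 ± 0.48). Of the 7 relatives tested, 2 were higher in M plate than in P plate with edgeR, beside 14.3% of all genes, and none was lower (also 0 at an unadjusted p under 0.05, with DESeq2 and with limma-voom). DESeq2 and limma-voom each called 3 higher, as did edgeR without P plate replicate 1, where Gpm6b was added. Of all genes, these 3 fits called 17%, 14.7% and 16.4% higher. The 2 called with all libraries were Lrrn3 (3.51 ± 0.56, edgeR adjusted p = 0.00143) and Lrrn2 (1.23 ± 0.24, adjusted p = 0.00401), relatives of Lrrn4. In M scaffold against M plate edgeR called 0 of the 7 with all libraries, while Gpm6b (1.69 ± 0.48) had an unadjusted p under 0.05 and was called higher without P plate replicate 1 (adjusted p = 0.0205). DESeq2 and limma-voom each called 1 of the 7 higher, beside 6.47% and 2.59% of all genes, and 0 lower.

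A list of 11 genes of the transition from mesothelial to mesenchymal state was read beside the members. In M plate against P plate edgeR called 0 higher (also 0 at an unadjusted p under 0.05, with DESeq2 and with limma-voom) and 2 lower, beside 14.3% and 10.6% of all genes. The lower ones were Tagln (-1.97 ± 0.42, edgeR adjusted p = 0.00748), which encodes an actin-binding protein of smooth muscle, and Acta2 (-1.22 ± 0.37, adjusted p = 0.0354), the gene of smooth muscle actin, whose call was lost without P plate replicate 1 (adjusted p = 0.0557). In that fit Snai2, a repressor gene, was called higher (0.97 ± 0.24, edgeR adjusted p = 0.0127, against 0.30 ± 0.37 with all libraries) and Twist1 lower (-0.76 ± 0.23, adjusted p = 0.0336). In M scaffold against M plate 1 was higher, the repressor gene Zeb1 (0.65 ± 0.10, edgeR adjusted p = 0.0141), beside 1.53% of all genes, and 7 of the 11 were higher in all M scaffold libraries than in all M plate libraries, beside 15.9% of all genes. Leaving out P plate replicate 1 gave 3 of the 11 called higher, beside 5.51% of all genes. Zeb1 was at 101, 102 and 99.6 CPM in M plate and at 161, 162 and 149 CPM in M scaffold. Fibroblasts and smooth muscle cells express most of these genes too, and the 7 fibroblast markers summed to 30560 to 32350 CPM in M plate and 35970 to 45160 CPM in M scaffold. Their part in these values was not tested.

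Genes whose pattern was nearest to each member were found by centring log2(CPM + 0.1) on its mean over 12 libraries and averaging the absolute differences. The nearest to Wt1 was Ddr1, a collagen receptor kinase, at a mean difference of 0.126, where the median gene was at 0.585. Stk26 was nearest to Upk3b (0.157), Cdh3, the P-cadherin gene, to Upk1b (0.200), Fam187b to Lrrn4 (0.208), Marveld3 to Gpm6a (0.211) and Chrnb1 to Bnc1 (0.216). Rragb was nearest to Muc16 (0.302) and Grb7 to Msln (0.388). The next were Il18r1 and Kcnk1 for Msln, Lvrn and Wwc1 for Upk3b, Slc9a3r1 and Gm26809 for Upk1b, 1810059H22Rik and Stard10 for Wt1, Ppp2r2b and Lsr for Lrrn4, Zfp185 and Rnf39 for Gpm6a, Prr15l and Elovl7 for Muc16, and B4galt4 and Tmem108 for Bnc1. None of these 24 genes was in the lists of mesothelial genes above. Some were at 3 counts or fewer in P plate replicate 1: Grb7 and Kcnk1 at 0 CPM, Fam187b at 0.0274 and Marveld3 at 0.0821. Their differences in that library depend on the 0.1 added to the CPM. Cdh3 was at 64.1 CPM in P plate replicate 1, with means of 282 CPM in P plate, 204 in M plate, 95.2 in M scaffold and 105 in strips. All 12 points of each pattern share P plate replicate 1, which was low for all 8 members, so the likeness is a description.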

How the data were processed

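The table that the authors deposited holds raw counts, with a row per Ensembl gene and a column for each of 12 mouse RNA-seq libraries. Per the labels' protocols, RNA came from RNeasy kits after Qiashredder, and the library kit was TruSeq RNA v2. Reads were aligned with STAR 2.6.0, and the builds GRCm38 and mm10 are named, per the submitters' processing notes. Not given in the sources used here are the counting program, the annotation, the strand setting and how the 2 technical replicates per sample were joined. The 5 summary entries of the table stayed out of library sizes and tests. They held 2.57% to 4.42% (no feature), 1.83% to 2.24% (ambiguous) and 38.7% to 46.7% (not unique) of all entries, so a gene with near copies may be undercounted. In 1 respect the labels conflict: strips have the same day 28 and source name as cultures, and were taken as native tissue.

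Of the 52550 genes, 52403 matched GENCODE M21. Genes kept by filterByExpr (17700) were fitted with edgeR 4.0.16 in R 4.3.3, with TMM scaling, group as the only term and 8 residual degrees of freedom, and tested with the quasi-likelihood F test. A Benjamini-Hochberg adjusted p under 0.05 over all genes tested was a call. Standard errors come from the F statistic. The code was tested on simulated data. DESeq2 1.42.0, limma-voom (limma 3.58.1), other scalings and filters, smaller fits, replicate blocks and leaving out each library were alternatives. The fit without P plate replicate 1 in the comparisons without P plate was added after the data were seen. Within-group counts differed by a chi-square of 36.9 to 405 per gene, so no library was counted as a copy.

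Deviations of same-numbered libraries from their group means correlated at 0.366, 0.306 and 0.363 between M plate and M scaffold, over genes, so the numbers were taken to pair these groups. They did not pair other groups. The members and gene lists were chosen with earlier results of these data known, and some genes are not reported here. The text names all 8 members, any of the 18 further mesothelial genes, from other lists the 2 called genes with the largest change in each direction, and the 3 nearest genes per member. The named relatives at low or 0 counts and the marker genes at 0 were added to that rule after their values were seen. So were Krt14, Krt5, Trp63, Fabp2, Chga, Snai2, Twist1 and Gpm6b.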

Additional observations from a re-analysis of the deposited data

How the results depend on the processing

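Among log2 fold changes of single members under the alternatives, 633 kept their direction and side of the threshold, 41 passed it newly, 28 no longer passed it and 42 changed sign. Upper quartile scaling moved the median of all genes against strips from -0.0285, -0.0072 and -0.023 to -0.19, -0.16 and -0.16 (P plate, M plate, M scaffold), and that of the members from -0.067, 0.45 and -0.46 to -0.21, 0.30 and -0.60. Without P plate replicate 1, its spread leaves the shared estimate; the cause of other changes was not tested. The calls of genes in M scaffold against M plate, 562 in the main fit, were 2019 with DESeq2, 1004 with limma-voom and 1068 with only the 6 libraries compared, and ran from 18 (without M plate replicate 2) to 1897 (without P plate replicate 1) with a library left out. In M plate against P plate, 4400 genes were called, 2846 with only 6 libraries and 2630 to 5188 with a library left out. In M scaffold against P plate, 4375 were called and 1791 with only 6 libraries.

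Members called in P plate against strips were 3 in the main fit and 5 with DESeq2. They were 1 with each of upper quartile scaling, limma-voom and only the 6 libraries, and 1 to 5 when a library was left out. DESeq2 called 31% of all genes higher and 34.5% lower, and upper quartile scaling 24.2% and 37.8%. The corresponding shares were 28.9% and 33.6% with limma-voom, and 25.9% and 31.2% with the 6 libraries. In M plate against strips, 2 members were called, 6 with only the 6 libraries, and 1 to 5 with a library left out. Those 6 libraries alone called 33.6% of all genes higher and 33.9% lower. In M scaffold against strips, 2 were called, 1 with limma-voom, 5 with only the 6 libraries, and 1 to 5 with a library left out. Of all genes, limma-voom called 23.8% higher and 29.3% lower, and the 6 libraries 26.3% and 29.6%. The count of 0 in M scaffold against M plate became 1 with only the 6 libraries, which called 2.78% of all genes higher and 3.75% lower. With a library left out it ran from 0 to 1, that in M plate against P plate from 0 to 3, and that in M scaffold against P plate from 0 to 6. The higher values were those without P plate replicate 1, and the shares of all genes in that fit stand with each comparison above.

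Signs changed where a value was near 0, and also in comparisons with P plate where the group means were further apart. Lrrn4, for example, averaged 264 CPM in M scaffold and 406 in P plate, and Msln 287 in M plate and 367 in P plate. Gpm6a in M scaffold against P plate was -0.014 in the main fit, and 0.014 with DESeq2 size factors and with DESeq2, 0.0061 without the low-count filter, 0.0091 with only the 6 libraries and 0.91 with limma-voom. Limma-voom also turned Msln (0.55) and Wt1 (0.084) in M plate against P plate, and Lrrn4 (0.39) and Bnc1 (0.027) in M scaffold against P plate. In M plate against strips, Upk3b was -0.0044 with DESeq2 size factors and with DESeq2, -0.14 with upper quartile scaling and -0.028 with a CPM filter, and Lrrn4 was -0.020 with upper quartile scaling.

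With a library left out, M plate against P plate ranged from -0.90 to 0.058 for Msln, -0.37 to 0.66 for Upk3b, -0.49 to 0.20 for Wt1, -0.39 to 0.96 for Lrrn4, -0.0060 to 0.99 for Muc16 and -0.13 to 0.94 for Bnc1. M scaffold against P plate ranged from -0.65 to 0.029 for Wt1, -1.15 to 0.18 for Lrrn4, -0.54 to 0.87 for Gpm6a, -0.15 to 0.84 for Muc16 and -0.92 to 0.13 for Bnc1. P plate against strips ranged from -0.65 to 0.35 for Upk3b, -0.83 to 0.49 for Lrrn4 and -1.13 to 0.27 for Gpm6a. In these 3 comparisons the extreme at one end was the fit without P plate replicate 1 and at the other that without replicate 2 or 3. Muc16 in M scaffold against M plate ranged from -0.45 to 0.067, Upk3b in M plate against strips from -0.080 to 0.12, and Gpm6a in M scaffold against strips from -0.43 to 0.030.

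With a replicate block in the 6 libraries, M scaffold against M plate had 1718 genes and 4 members called. Where the numbers do not pair the groups (correlations from -0.0974 to 0.162), the block left 1300 genes called in M plate against P plate and 915 in M scaffold against P plate. Against strips it called 1, 6 and 5 members in P plate, M plate and M scaffold. The shares of all genes higher and lower there were 19.9% and 26.9%, 32.4% and 32.4%, and 22.3% and 26% in this order. Gpm6a in M scaffold against P plate was then 0.55, and Msln and Wt1 in M plate against P plate were 0.24 and 0.061. The block in all 12 libraries gave 0.096 for that Gpm6a value. It called 1 member in P plate against strips, beside 29.3% of all genes higher and 32.6% lower. Depth did not limit members, whose lowest count was 233.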
